A study of Mus musculus with 12 samples.

Results

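The interferon response and antigen presentation genes of C2C12 cells were examined as a group of 38 protein-coding genes with a row in at least 1 of the 3 deposited lists of differentially expressed genes. C2C12 is a mouse myoblast line that fuses into myotubes when serum is reduced. The members were chosen by name: genes whose symbols begin with Ifit, Isg, Oas or H2-, or with Ifi, Irf or Gbp followed by a number, 3 Stat genes, Parp9 to Parp14, Tap1, Tap2, Ifih1, and a short set of named genes such as B2m, Tapbp, Ddx58, Mx1, Rsad2 and Xaf1. The mouse annotation holds 121 protein-coding genes of that description, so 83 of them had no row. The 38 members stood among 9266 protein-coding genes, and 10289 genes of all types, with a row in any list.

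RNA-seq had been made from 8 libraries in 4 groups of 2, and all of these cells were stable C2C12 lines made with lentiviral vectors that carry puromycin selection. GFP-overexpressing cells, the vector control, were sequenced in growth medium (GM, day 0) and at day 4 of differentiation medium (D4). Cells overexpressing METTL3 or METTL14, the catalytic and the RNA-binding subunit of the enzyme that writes N6-methyladenosine on mRNA, were sequenced in GM. The METTL14 libraries are D0 by title but D4 by their time point field. They were taken here as GM, since the paper and the name of the authors' comparison both give GM. The sources do not say whether the 2 libraries of a group came from separate cultures. One list compares GFP cells at D4 with GFP cells in GM, and the others compare METTL3 or METTL14 cells with GFP cells in GM, so the GFP libraries in GM enter all 3 lists. A gene is called listed where it has a row, which means that it passed the authors' FDR limit of 0.05. The measurement used for each gene is the authors' mean normalized count, a single value over the libraries with no value per library. Since the authors' own comparison values in the lists were not used, no direction of change, spread or test is given here. Lists that share a gene give it an equal mean, and 6 of the 8 libraries are GM and 2 are D4. Levels therefore lean towards GM, and their order need not hold in either state. The 2 METTL3 and 2 METTL14 libraries are in the mean too, so it is not a level of control cells alone. A gene with no row may be silent, unchanged or too variable.

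Interferons are secreted proteins that cells release when they sense viral or misplaced nucleic acid. Type I interferon acts through its receptor and the kinases JAK1 and TYK2 on STAT proteins, which join IRF9 and bind interferon-stimulated response elements (ISRE) in target promoters, while interferon gamma acts mainly through STAT dimers on gamma-activated sites (GAS). The targets include antiviral effectors and the MHC class I pathway, in which TAP pumps peptides into the endoplasmic reticulum, tapasin loads them on a heavy chain paired with beta-2-microglobulin, and the complex shows them to T cells. Skeletal muscle fibres show little class I protein in healthy tissue.

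The promoters of the members carried recognisable ISRE and GAS letters in part. RefSeq promoter windows of 300 bases, from 250 before to 50 after the start on GRCm38.p6, were found for 29 of the 38 members, in 34 windows. The ISRE core was searched as GAAANNGAAA on both strands, which reads TTTCNNTTTC on the other strand, and the GAS core as TTCNNNGAA, which reads the same on both. The stretches of 30 bases below are written along the gene's own strand, 5′ to 3′, with the match in capitals. The first 6 show the ISRE core in a member of each of 6 roles, and the last 2 show the GAS core of genes whose windows held no ISRE core.
B2m (chr2:122147538-122147567, plus strand): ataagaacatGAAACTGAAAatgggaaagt
H2-T22 (chr17:36042914-36042943, minus strand): attggcttagTTTCACTTTCgaatccccaa
Stat2 (chr10:128270266-128270295, plus strand): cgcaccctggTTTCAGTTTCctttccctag
Ddx58 (chr4:40239804-40239833, minus strand): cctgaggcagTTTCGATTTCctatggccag
Gbp2 (chr3:142620594-142620623, plus strand): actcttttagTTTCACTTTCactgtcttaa
Ifitm3 (chr7:141010706-141010735, minus strand): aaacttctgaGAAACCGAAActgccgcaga
Ifit2 (chr19:34550444-34550473, plus strand): catgggagcTTCCTGGAAgaatggataaaa
Ifi202b (chr1:173982973-173983002, minus strand): ctgtcatgatTTCTCAGAAtaactactgag

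The ISRE core was present in 9 of the 34 windows (26.5%), each of a different gene, whereas 3.44% of all 32851 RefSeq mouse windows of the same length held it. B2m, Ddx58, Gbp2, Gbp2b, H2-T22, H2-T23, Ifi207, Ifitm3 and Stat2 had the match. The genes of the same name rule that had no row carried it in 34.2% of 79 windows, a share no lower than that of the listed genes. The GAS core was present in 5 windows (14.7%), those of Ifi202b, Ifit2, Ifitm3, Ifitm6 and Irf2bp1, beside 8.30% of all windows and 16.5% of the windows of unlisted genes. Ifitm3 was the member with both cores: its ISRE matches began at positions 2 and 19, counted from 0 at the first transcribed base, and its GAS match began at 13 and overlapped the second of them. The other matches began between positions -241, the GAS core of Ifit2, and 2, the ISRE core of Ddx58. A match gives only the letters in the window, and their use in these cells was not measured. The windows come from the reference genome, whereas these cells derive from another mouse strain. The promoter letters of that strain, those of Ifi202b among them, were not examined. The search took exact matches in a fixed window. A window with no match, as for the ISRE core of Ifit2, does not show that the gene lacks such an element.

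**Figure D1:**
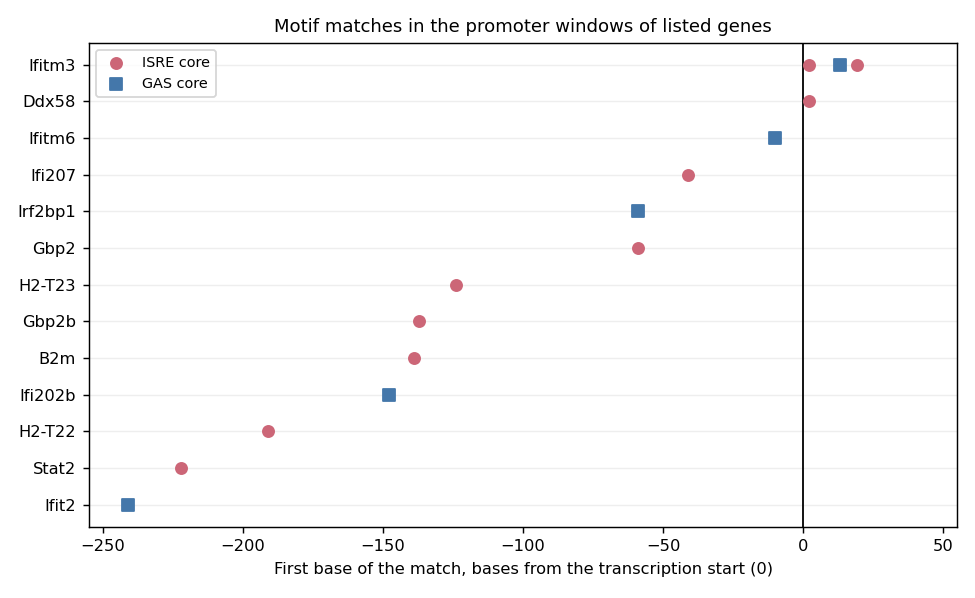
Position of each ISRE core (red circles) and GAS core (blue squares) match in the promoter windows of listed genes, with bases from the transcription start (0) on the horizontal axis and 1 gene per line. Ifitm3 has its 3 matches just after the start, and the GAS match of Ifit2 lies farthest before it.

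**Figure D2:**
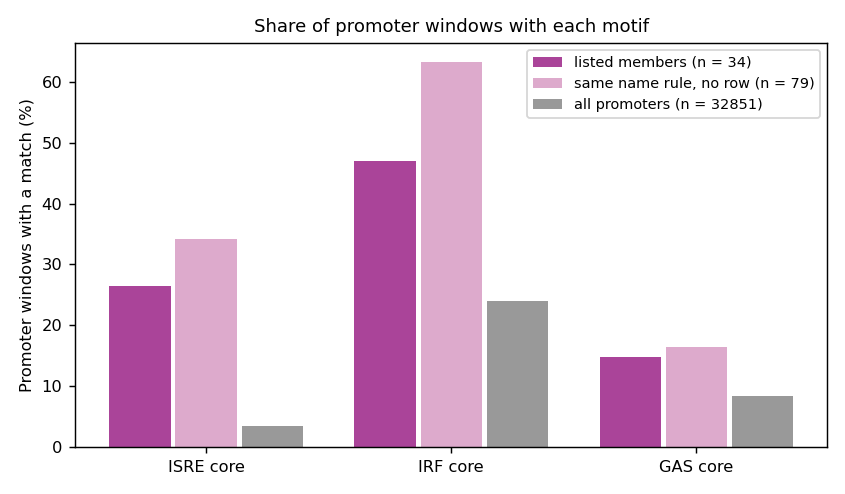
Percent of promoter windows with the ISRE core, the shorter IRF core and the GAS core, for listed members (34 windows), genes of the same name rule with no row (79 windows) and all RefSeq windows (32851). The ISRE core was found in 26.5%, 34.2% and 3.44% of these windows.

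Listed members were not more frequent than listed genes in general. Differentiation listed 34 of the 121 annotated genes (28.1%), below the 40.0% of all annotated protein-coding genes with a row at D4. METTL3 overexpression listed 8 (6.61%), beside a background of 7.78%. METTL14 overexpression listed 2 (1.65%), beside a background of 4.90%. Any of the 3 lists held 38 (31.4%), beside a background of 42.0%. With genes of any list as the base, the share for METTL3 was 21.1% of members and 18.5% of all protein-coding genes, so its order against the background depended on the base. The 8 members listed for METTL3 were Ddx58, H2-T22, Ifi27, Ifit2, Ifitm3, Ifitm10, Parp12 and Tap2, and the 2 listed for METTL14 were Ifi27 and Ifit2. Of the members, 30 were listed for D4 alone and 3 for METTL3 alone (H2-T22, Ifitm3 and Ifitm10), 3 were listed for D4 and METTL3 (Ddx58, Parp12 and Tap2), Ifit2 was listed for METTL3 and METTL14, and Ifi27 was listed in all 3. The share of all protein-coding genes in each of these combinations of lists was not counted. The split is therefore a description and shows nothing particular to the members. A row in 1 list and none in another does not show that the effects differ, and that difference was not tested.

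**Figure D3:**
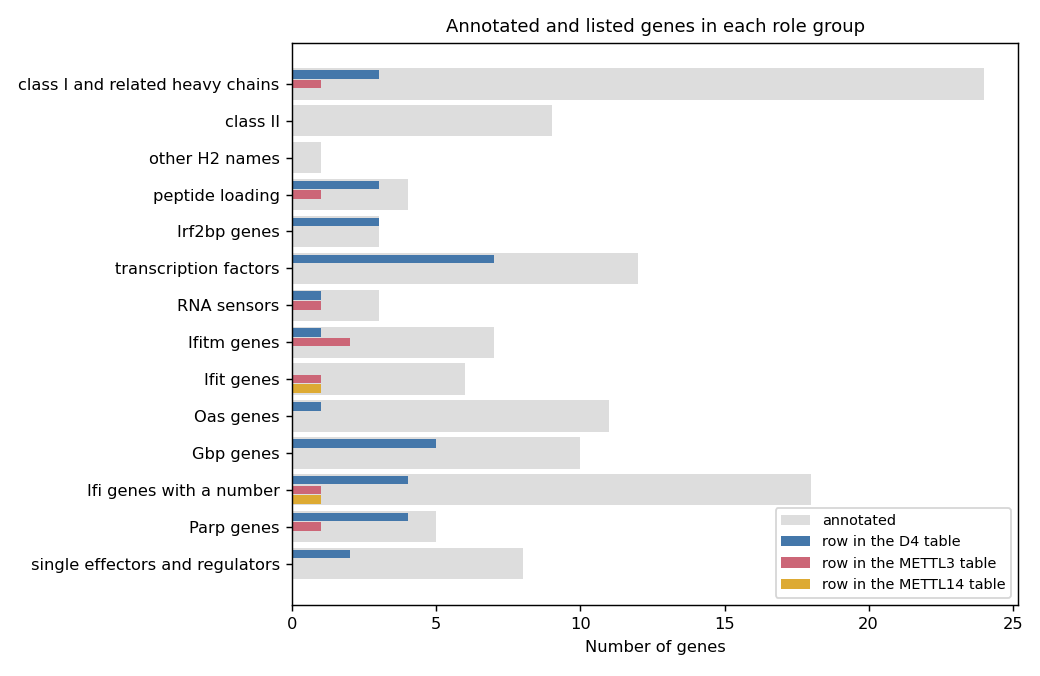
Number of annotated genes (wide grey bars) and of genes with a row in the D4, METTL3 and METTL14 lists (narrow bars) in each role group. For D4, 3 of 24 class I, 3 of 3 Irf2bp and 4 of 5 Parp genes had a row, where the share of all annotated protein-coding genes was 40.0%, and the groups were not tested against each other.

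By the mean pooled over GM and D4 libraries, most members lay below the typical listed gene. Their median mean normalized count was 173, from 2.89 for Gbp4 to 4525 for B2m, against 545 for all listed protein-coding genes. Mean counts under 10 were held by 5 members (13.2%), compared with 3.68% of listed protein-coding genes, and means of at least 1000 by 5 members (13.2%), compared with 31.4%. Per kilobase of merged exon, the scale on which genes can be set side by side, the median was 36.1 for the members and 115 for listed protein-coding genes, and 14 of the 38 members lay above the latter median. B2m and Ifitm3 together made up 39.4% of the members' summed mean count. Both lay at the 99.5th percentile of listed protein-coding genes per kilobase.

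**Figure D4:**
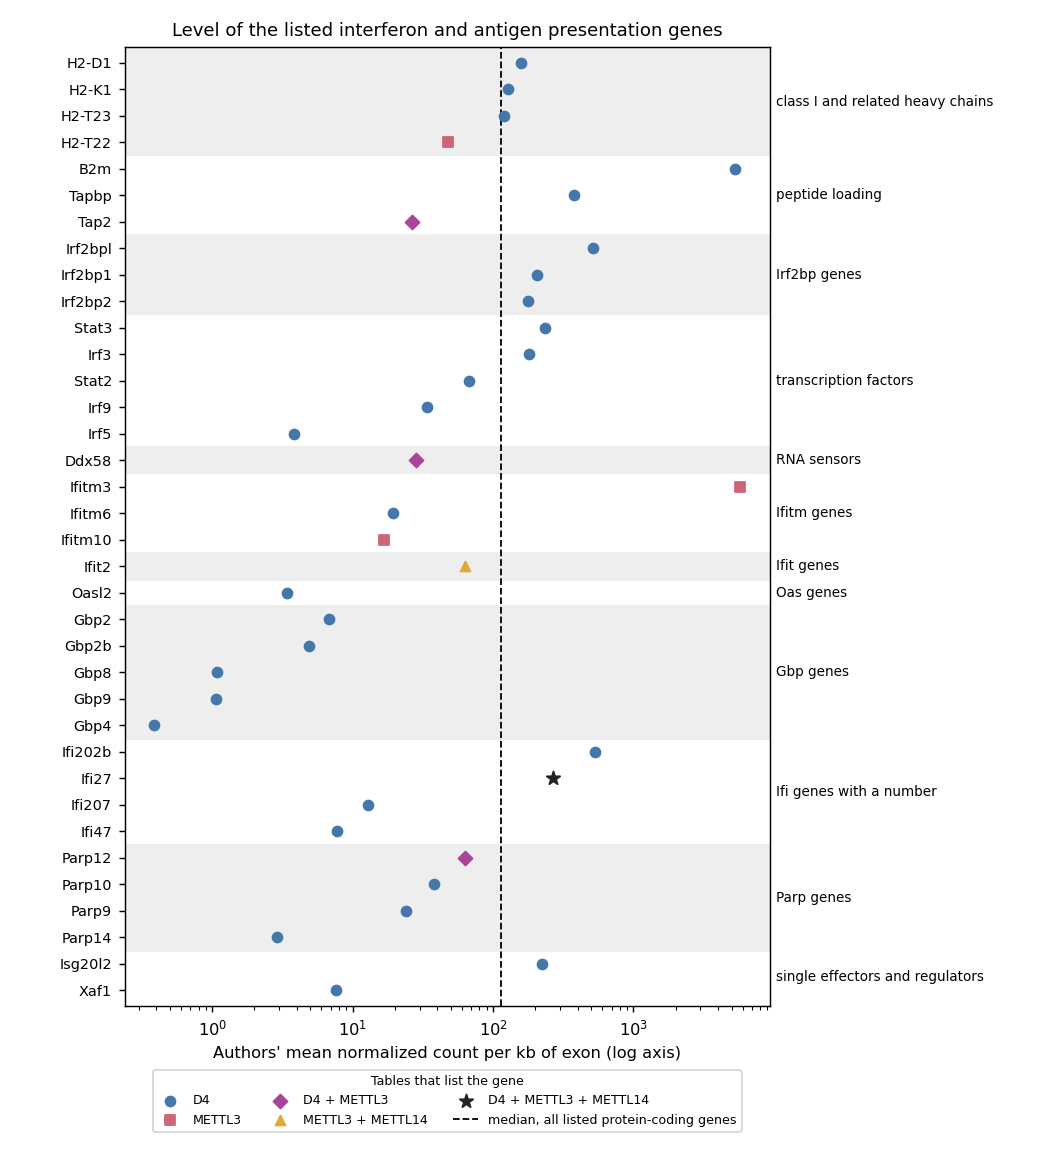
Authors' mean normalized count per kilobase of exon (log axis) for the 36 members named in the text, grouped by role, with symbols for the lists that hold each gene and a dashed line at the median of all listed protein-coding genes (115). Ifitm3 (5763) and B2m (5261) lie far above the other members, whereas the 5 Gbp genes all lie below 10.

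Among nucleic acid sensors, Ddx58, which encodes the RNA helicase RIG-I, was listed for D4 and METTL3 with a mean count of 200 (28.3 per kilobase). Its relatives Ifih1 (MDA5) and Dhx58 (LGP2) had no row. The transcription factors had 7 of 12 genes listed for D4, beside the 40.0% of all annotated protein-coding genes listed for D4. No transcription factor had a row in another list. Stat3, which answers to interleukin-6 family cytokines as well as interferon, was the highest of them at 234 per kilobase (mean count 2225), followed by Irf3, the factor activated below RIG-I, at 181 (mean count 622). Stat2 at 67.6 per kilobase and Irf9 at 34.1 are subunits of the ISRE-binding complex. Irf5, which acts below Toll-like receptors, reached 3.81 per kilobase (mean count 11.1). The other listed factors were lower. Irf9 shares exon sequence with Rnf31 on the same strand, and Stat3, Irf3 and Irf5 overlap a neighbour on the other strand. The sources do not state whether reads were counted by strand, or how reads shared between genes were treated. Part of the counts of these genes may therefore belong to the neighbours, or shared reads may be missing from them. The same limit holds for all 19 members whose exons overlap another gene's, 10 of them on the same strand and 11 on the other. Among these are Ifitm10 and Tapbp on the same strand, and Tap2, H2-T22 and Isg20l2 on the other.

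The Irf2bp genes entered through their names. They encode co-repressors first found through binding to IRF2, and are not interferon regulatory factors. All 3 were listed for D4, beside 40.0% of all annotated protein-coding genes listed for D4. None of them had a row in another list. They had 511 per kilobase for Irf2bpl, 204 for Irf2bp1 and 176 for Irf2bp2. Each lay above the median of listed protein-coding genes.

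In the class I pathway, 4 of 24 heavy chain genes and 3 of 4 genes of peptide loading were listed, and none of the 9 class II genes, beside 42.0% of all annotated protein-coding genes in any list. These groups are small and their counts were not tested against each other. H2-D1 and H2-K1, the classical heavy chains, were listed for D4 with 159 and 129 per kilobase (mean counts of 411 and 378). Per kilobase of the longest transcript their order was reversed, with 196 for H2-D1 and 202 for H2-K1. H2-T23, the non-classical chain Qa-1 that presents signal peptides of other class I chains, was listed for D4 with 120 per kilobase. H2-T22, a ligand of some gamma delta T cells, was listed for METTL3 alone with 47.8 per kilobase. B2m, the light chain that all of these share, was listed for D4 and had 5261 per kilobase, 11.6 times the 455 of the 4 listed heavy chains summed. On the scale of mean counts, without regard to length, B2m was 3.49 times their sum. The ratio per kilobase depends on the length used, and was not taken on the longest transcript. Tapbp, which encodes tapasin, was listed for D4 at 379 per kilobase. Tap2, a subunit of the peptide transporter, was listed for D4 and METTL3 at 26.3 per kilobase (mean count 99.5), while its partner Tap1 had no row.

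The heavy chain values have a limit in the sequence. The coding sequences of H2-D1 and H2-K1 in the reference are 92.0% identical, and those of the other pairs of listed chains between 75.3% and 83.7%. Of the stretches of 100 bases in H2-T22 transcripts, 8.86% also occur in transcripts of 9 other genes, among them H2-D1, H2-T10 and H2-T23, and the share is 3.59% for H2-D1, 3.15% for H2-T23 and 0.957% for H2-K1. C2C12 cells derive from C3H mice, whose H2 alleles differ from those of the C57BL/6J reference, and the part of this in the counts was not tested. Tapbp, H2-K1, Tap2, H2-D1, H2-T23 and H2-T22 lie together on chromosome 17, in the mouse MHC. H2-T23 (chr17:36029773-36032855) and H2-T22 (chr17:36037128-36042747) are 4.27 kb apart on the same strand, and were listed for D4 and for METTL3 respectively.

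The Ifitm proteins sit in membranes, and some of them restrict the entry of enveloped viruses. Ifitm3 (chr7:141009586-141010770) was listed for METTL3 alone and was the highest member per kilobase at 5763 (mean count 3907). Ifitm10 was also listed for METTL3 alone, at 16.7 per kilobase. Ifitm6, which lies 4.93 kb from Ifitm3, was listed for D4 alone at 19.3 per kilobase. Ifitm1, Ifitm2, Ifitm5 and Ifitm7 had no row. Ifit2 (chr19:34550694-34576419), an RNA-binding inhibitor of viral translation, was listed for METTL3 and METTL14 but not for D4, with a mean count of 249 (63.5 per kilobase). It was the single listed gene of 6 in its family, as Ifit1, Ifit1bl1, Ifit1bl2, Ifit3 and Ifit3b had no row. Of all annotated protein-coding genes, 42.0% had a row in any list.

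Of the genes named Ifi with a number, 4 of 18 were listed, beside 42.0% of all annotated protein-coding genes in any list. Ifi27 (chr12:103434211-103440239), a small hydrophobic protein strongly induced by type I interferon, had a mean count of 391 (267 per kilobase) and a row in each list. Ifi202b, of the DNA-binding HIN-200 family, was higher at 531 per kilobase, and its neighbour in the same family, Ifi207, reached 12.8. Ifi47, an immunity-related GTPase, reached 7.74 per kilobase and overlaps exons of Olfr56. All 3 were listed for D4 alone.

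The GTPases of the Gbp family, which coat the vacuoles of intracellular pathogens, were listed for D4 in 5 of 10 cases, a count near the 40.0% background at D4. No Gbp gene had a row in another list. Their levels were low: 6.84 per kilobase for Gbp2, 4.88 for Gbp2b, 1.08 for Gbp8, 1.07 for Gbp9 and 0.386 for Gbp4. Gbp4, Gbp8 and Gbp9 overlap in their exons on 1 strand of chromosome 5, with mean counts of 2.89, 3.73 and 5.55, so their reads may not be assigned to a single gene. Gbp2b and Gbp2 are 1.42 kb apart on chromosome 3.

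The Parp genes of the rule encode ADP-ribosyltransferases, several of them induced by interferon. Of the 5, 4 were listed, beside 42.0% of all annotated protein-coding genes in any list, and so small a group was not tested. Parp12, which has an antiviral zinc finger domain, was listed for D4 and METTL3 at 62.7 per kilobase (mean count 251). Parp10 at 38.2, Parp9 at 24.0 and Parp14 at 2.90 per kilobase were listed for D4 alone, and Parp11 had no row. Parp9 overlaps Dtx3l, which encodes its binding partner, on the other strand, and Parp10 overlaps Plec on the same strand. Oasl2, a relative of the synthetases that switch on RNase L, was listed for D4 at 3.43 per kilobase. It was the single listed gene of 11 Oas genes, beside the same 42.0% of all annotated protein-coding genes. Xaf1, a pro-apoptotic partner of XIAP, was listed for D4 at 7.59 per kilobase. Isg20l2, a nucleolar exonuclease of ribosomal RNA maturation that shares its name pattern with Isg20, was listed for D4 at 225. Bst2, Isg15, Isg20, Mx1, Rsad2 and Usp18, which include some of the most widely used indicators of an interferon response, had no row. With Xaf1 and Isg20l2 they form a group of 8 genes, of which 2 were listed, beside 42.0% of all annotated protein-coding genes in any list. Genes with no row may be silent, unchanged or too variable, so whether these cells had an interferon response cannot be read from them. Mx2, an antiviral GTPase that the files type as a polymorphic pseudogene and that is therefore no member, was listed for D4 with a mean count of 2.01.

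Other genes of the pathway were taken from a list of 33 names, of which 31 were annotated and 14 had a row, 13 for D4, 2 for METTL3 and 3 for METTL14, where 42.0%, 40.0%, 7.78% and 4.90% of all annotated protein-coding genes had a row in any list, for D4, for METTL3 and for METTL14. Of the receptor chains, Ifnar2 was listed for D4 at 115 per kilobase, and Ifnar1, Ifngr1 and Ifngr2 had no row, nor did the ligand Ifnb1. Among the kinases, Jak2 had a row in all 3 lists (208 per kilobase) and Tyk2 for D4 (81.3), while Jak1 had none. The feedback inhibitors Socs1 and Socs3 were listed for D4 with 47.5 and 135 per kilobase. Nlrc5, the transactivator of class I genes, was listed for METTL14 alone at 1.90 per kilobase (mean count 16.1). Calr, which encodes the chaperone calreticulin, was listed in all 3 lists at 7222 per kilobase, and Pdia3, its partner in class I assembly, for D4 at 4111. Psmb8, Psmb9 and Psmb10, the immunoproteasome subunits, had no row.

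Cell type markers give no check of a single group here, since a row and a pooled mean carry no group. All 5 myoblast markers (Cdh15, Des, Itga7, Myf5 and Myod1) and all 5 myotube markers (Acta1, Ckm, Myh3, Myog and Tnnt3) were listed, with mean counts from 593 for Myf5 to 53546 for Acta1. Of 6 leukocyte markers, Csf1r and Cd74 were listed for D4 with mean counts of 27.1 and 4.61. Ptprc, Adgre1, Cd68 and Itgam had no row, nor did both endothelial markers. Beside these counts, 42.0% of all annotated protein-coding genes had a row in any list, and the short marker lists were not tested. Mettl3, with a mean count of 5827, was listed for METTL3, and Mettl14, with 6250, for METTL14 and D4. Each mean includes the libraries that overexpress the gene, so it does not give the level in control cells. The row of each gene in the list of its own overexpression follows from the design.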

How the data were processed

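RNA was sequenced from 8 libraries in 4 groups of 2. The authors aligned the reads with hisat2 to GRCm38, counted them with featureCounts on Ensembl annotation 102 and compared groups with DESeq2, and program versions are not given in the sources used here. The signal in the deposited lists is the authors' mean normalized count, each gene's count divided by DESeq2's size factors and averaged over libraries. It was the same for a gene in every list (largest relative difference 4.77e-10 over 1746 genes in more than 1 list). The lists also hold the authors' log2 fold changes, standard errors, Wald statistics and p-values, which were not used. The lists give no value and no total count per library, and read totals given elsewhere by the study were not used here, so no interval was made. Of the 4 MeRIP-seq libraries nothing was analysed here.

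Members were found by gene name and type, and levels were divided by merged exon length from GENCODE M21, in which 10285 of 10289 identifiers were found. Promoter windows came from RefSeq (GRCm38.p6). Shared stretches were 100 identical bases of transcript. All steps used Python 3.11.15, pandas 2.3.3, NumPy 2.4.6 and Biopython 1.88, and the motif search recovered 1200 of 1200 matches planted in simulated sequences. The genes named were those listed for METTL3 or METTL14, all other members of role groups with at most 5 listed genes, and the 5 highest per kilobase of larger groups. Other low-count limits, gene types, name rules, bases of the shares, lengths and motif windows were tried as alternatives. The members and lists were chosen with earlier results of these data known. Some genes of the rule are counted but not reported here by name.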

Additional observations from a re-analysis of the deposited data

How the results depend on the processing

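No paired analysis was possible because the deposited lists hold no value per library, and for the same reason leaving out each library was not run. The number of members listed for D4 was 34 and dropped to 19 where a mean count of at least 100 was required. That limit kept 55.9% of the members listed for D4, beside 82.7% of all protein-coding genes listed for D4. With genes of any list as the base, 89.5%, 21.1% and 5.26% of members were listed for D4, METTL3 and METTL14, beside 95.2%, 18.5% and 11.6% of all protein-coding genes, so that for METTL3 the members' share then lay above the background instead of below it. The median mean count of the members was 249 at a mean of at least 10, and 140 without the H2- genes. The median per kilobase was 49.8 on the longest transcript. In the 150 bases nearest the start, the ISRE core was in 14.7% of member windows. It was in 1.58% of all windows and 27.8% of windows of unlisted genes of the name rule. The GAS core there was in 8.82%, 4.04% and 8.86% of these 3 sets. The shorter IRF core AANNGAAA, which the ISRE core contains, was in 47.1%, 23.9% and 63.3% of their whole windows. The counts of listed members for METTL3 and METTL14 stayed within 1.5 times their reported values under the other limits and name rules.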
